A study of Mus musculus with 15 samples.

Results

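Binding of the FLAG-tagged factors Sp7, Dlx5, Sp1 and Sp7mut was examined over 1.1 Mb of mouse chromosome 17 that holds Runx2, the neighbouring gene Supt3 and their flanks. Members were all peaks of the 12 deposited lists whose midpoint lay in chr17:44300000-45400000 (mm9). Peaks that overlapped by at least 1 bp were merged, which gave 120 sites out of 61108 on all chromosomes. A group was said to hold a site when both of its replicates had a peak in it. The nearest sites inside the window were chr17:44376149-44376590 and chr17:45384441-45384944, and the nearest outside were chr17:44213092-44213257, with peaks of both Dlx5 lists, and chr17:45402254-45402513, with 1 Dlx5 peak.

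In the primary cells, osteoblasts from the calvaria of C57BL/6 mice at postnatal day 1, Sp7 was tagged on both alleles (genotype Sp7-BioFL/BioFL). The control there was wild-type. In MC3T3-E1, an osteoblastic cell line used at passages 5 to 10 and grown under osteogenic conditions for 1 week, 4 proteins were tagged, namely Sp7, Sp7mut, Dlx5 and Sp1, and GFP served as the control. The medium held recombinant human BMP-2 at 10 ng/ml, beta-glycerophosphate at 10 mM and ascorbic acid phosphate at 50 ug/ml. Each tagged group had 2 libraries and each control 1. All were pulled down with the FLAG M2 antibody. The labels do not say how the cell line came to carry the tagged proteins, what Sp7mut changes, or whether the replicates are separate cultures or litters. Their spread may therefore be technical. No gene expression was measured, so the cell types could not be checked against their markers.

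Runx2 encodes a runt-domain transcription factor without which osteoblasts do not form, and it is transcribed from a distal and a proximal promoter. Sp7 (Osterix) is a zinc finger factor that acts after Runx2 in the same lineage. Dlx5, a homeodomain protein active in the developing skeleton, binds AT-rich DNA. Sp1, a relative of Sp7 present in most cells, binds GC-rich DNA. Supt3 encodes a subunit of a histone acetyltransferase coactivator complex. In the RefSeq gene table of GRCm38.p6, Supt3 overlaps Runx2 on the opposite strand, and Clic5 is the next protein-coding gene beyond Runx2.

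The DNA of the sites themselves is not shown, since no mm9 sequence was used here. The annotated starts of both genes are shown instead because the factors differ in the DNA they prefer. RefSeq (GRCm38.p6) gives 1 start for each gene in the promoter table, and the 250 bases before it are printed 5′ to 3′ on the strand of the gene, Runx2 on the minus and Supt3 on the plus strand of chromosome 17. Capitals mark matches on either strand to GGGCGG (a GC box), TAATTA (a homeodomain core) or ACCACA (a Runx motif).
Runx2: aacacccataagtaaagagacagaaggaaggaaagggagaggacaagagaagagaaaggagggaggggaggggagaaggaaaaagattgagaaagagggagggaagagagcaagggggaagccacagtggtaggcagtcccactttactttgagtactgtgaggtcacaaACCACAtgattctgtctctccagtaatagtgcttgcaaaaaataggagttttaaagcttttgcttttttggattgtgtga
Supt3: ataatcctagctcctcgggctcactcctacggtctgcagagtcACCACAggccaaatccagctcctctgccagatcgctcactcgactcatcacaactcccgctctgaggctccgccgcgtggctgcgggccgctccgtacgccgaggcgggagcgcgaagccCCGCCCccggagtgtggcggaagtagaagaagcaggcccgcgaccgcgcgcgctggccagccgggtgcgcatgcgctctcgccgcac

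The Runx2 stretch was 44.8% G and C and held 1 Runx motif, starting at -80 from the gene start, with no GC box and no homeodomain core. The Supt3 stretch was 68.8% G and C and held a GC box at -87 and a Runx motif at -207. Of 32851 promoters in the table, 32.7% held the GC box, 4.84% the homeodomain core and 14% the Runx motif over the same length, and their median was 52.4% G and C. A match is a description and not a binding site. Because the peaks are in mm9 and the gene starts in GRCm38.p6, no site was placed on either promoter, exon or intron.

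The deposited lists held 2666 and 3212 peaks for primary Sp7, between 6063 and 39749 for the tagged cell line groups, 183 for the wild-type control and 269 for the GFP control. They give positions only, so read depth and peak height are unknown. Peaks are therefore graded by row percentile, the row of a peak in its list as a percentage of the rows of that list, so that a low value is an early row. The submitters' rule for the order of rows is not stated. Inside the window, early rows were met again more often in Dlx5: 24 of 26 peaks of replicate 1 and 31 of 33 of replicate 2 in the first 20% of rows overlapped a peak of the other replicate. In the last 20% of rows it was 12 of 19 and 3 of 18. Cell line Sp7 replicate 2 did not follow this, with 4 of 8 peaks met in its first 20% of rows and 15 of 17 between 20 and 80%. Nor did Sp7mut replicate 1, with 12 of 13 met in its first 20% and 4 of 4 in its last 20%. Sp7mut replicate 2 did, with 12 of 12 and 2 of 8. Across the sites held by both replicates, the Spearman correlation of the row percentiles was 0.83 for Dlx5 (60 sites), 0.92 for Sp7mut (23), 0.81 for cell line Sp7 (22) and 0.55 for primary Sp7 (15). These sites share 1 stretch of chromosome and are not replicates.

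Primary Sp7, Dlx5, cell line Sp7 and Sp7mut all had peaks of both replicates in the window, at shares of their lists that depended on how much of each list was counted. For primary Sp7 there were 17 peaks in replicate 1 and 18 in replicate 2 (17.5 ± 0.707, SD, n = 2), or 0.638% and 0.560% of the lists. Cell line Sp7 had 42 and 28 peaks, 0.226% and 0.462% of its lists. Dlx5 had 77 and 98 peaks, 0.255% and 0.247%, and Sp7mut 26 and 38, 0.247% and 0.256%. Sp1 had 3 and 31 peaks, 0.0284% and 0.110%. Over whole lists, which differ widely in length, both primary shares were above those of all 8 cell line lists, and both Sp1 shares were below the rest. Over the first 2666 rows of each list, the length of the shortest and a step chosen after seeing the data, primary Sp7 had 17 and 17 peaks, Dlx5 13 and 22, cell line Sp7 10 and 14, Sp7mut 13 and 12 and Sp1 1 and 1. At that length primary Sp7 was no longer above every cell line list, since Dlx5 replicate 2 had more. No test was made, since the smallest p of an exact permutation test (two-sided) with 2 lists on each side is 0.333. Neither control had a peak in the window. A count of 0 allows up to 1.64% of the 183 wild-type peaks and up to 1.12% of the 269 GFP peaks, for counting error only. Over all chromosomes, 0.563% of merged sites held a control peak.

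**Figure D1:**
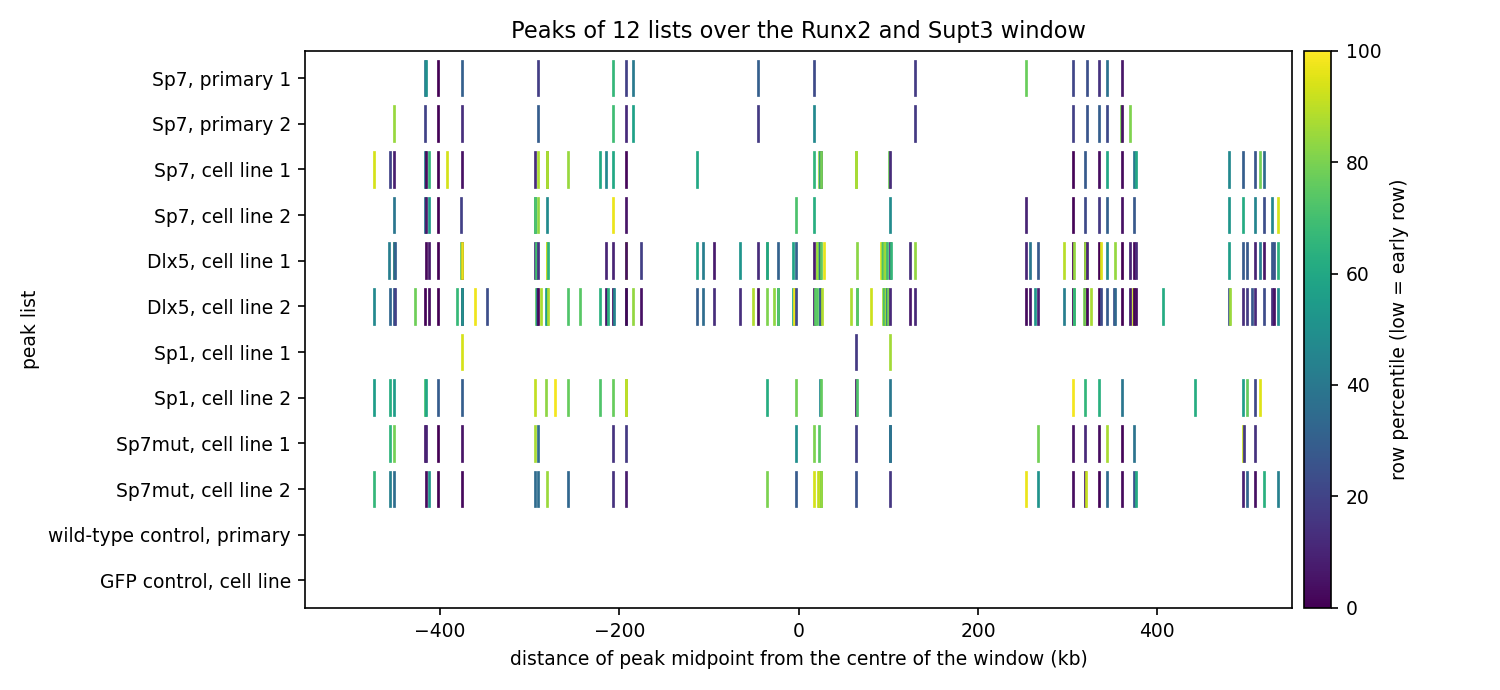
Each vertical line is a peak, placed by the distance of its midpoint from the centre of the window (kb) and coloured by row percentile, with 1 row for each of the 12 lists. Both control rows are empty, the Dlx5 rows hold the most peaks (77 and 98), and an empty stretch of 123 kb separates the middle of the window from its right-hand group of sites.

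The 120 sites were held unevenly by the groups. Dlx5 held 60 sites (50.0%, 95% Clopper-Pearson interval 40.7 to 59.3), where it held 39.2% of all merged sites in the series. Sp7mut held 23 sites (19.2%, 12.6 to 27.4) against 13.9% in the series, and cell line Sp7 22 sites (18.3%, 11.9 to 26.4) against 8.54%. Primary Sp7 held 15 sites (12.5%, 7.17 to 19.8) against 3.58%. Sp1 held 3 sites (2.50%, 0.519 to 7.13) against 15.1%. Its libraries went in opposite directions, however. Per Mb, replicate 1 had 2.73 peaks in the window against 7.29 on the rest of chromosome 17. Replicate 2 had 28.2 against 17.9. The ratio of these densities was thus 0.374 and 1.57 for Sp1, and from 2.84 to 12.8 in the lists of the other tagged groups. On the rest of chromosome 17, with 3098 sites, the shares were 42.3% for Dlx5, 17.1% for Sp7mut, 12.5% for cell line Sp7, 2.81% for primary Sp7 and 18.2% for Sp1. For Dlx5, Sp7mut and cell line Sp7 the interval of the locus holds the value for the rest of the chromosome, while for primary Sp7 it lies above. For Sp1 it lies below, though replicate 2 alone was denser here than on the rest of the chromosome. These are shares of merged sites, of which the window held more than most windows of its length. A low share therefore need not mean few Sp1 sites. The intervals cover counting error only, and neighbouring sites are not independent. Counting a peak of replicate 2 alone gave 97 Dlx5, 38 Sp7mut and 31 Sp1 sites, and counting a peak of replicate 1 alone gave 39 cell line Sp7 sites, so these counts rest on the library with fewer peaks, while primary Sp7 had 18 and 17.

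**Figure D2:**
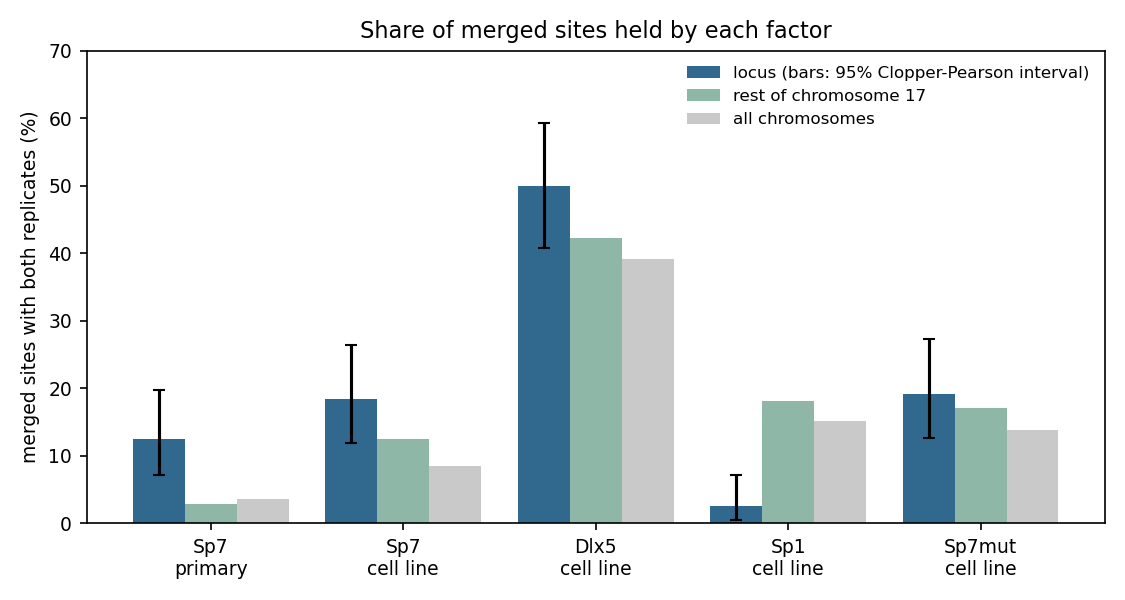
Bars give the percentage of merged sites with a peak of both replicates of a group, in the locus (120 sites, error bars are 95% Clopper-Pearson intervals), on the rest of chromosome 17 (3098 sites) and on all chromosomes (61108 sites). Primary Sp7 is at 12.5% in the locus against 3.58% on all chromosomes, and Sp1 at 2.50% against 15.1%.

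The window held more sites than most stretches of its length, though not the most. Consecutive windows of 1.1 Mb over all chromosomes, 2410 in all, had a median of 18 sites, 7 Dlx5 sites, 1 cell line Sp7 site, 2 Sp7mut sites, 2 Sp1 sites and 0 primary Sp7 sites. In 4 of these windows there were 120 merged sites or more. As many sites as here or more were found in 1061 windows (44.0%) for Sp1 and 12 for Sp7mut. For Dlx5 and cell line Sp7 it was 1 window each, and for primary Sp7 0. When windows were moved in steps of 50 kb and those touching the locus were left out, no other window held more than 11 primary Sp7 sites, against 15 here. The fullest other window held 169 merged sites against 120 here, and that of each group held 62 Dlx5 sites against 60 here, 31 cell line Sp7 sites against 22, 38 Sp7mut sites against 23 and 58 Sp1 sites against 3. The bounds of the locus were set around a gene chosen with results of these data known, so this order is a description.

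Primary Sp7 sites were spread over most of the window. Their median row percentile, averaged over the 2 lists, was 23.5, against 41.2 for the 2185 primary Sp7 sites of the series. In the first 10% of rows lay 2 of the 15, a share near the 11.5% of the series. All 15 lay between -416.2 and 360.3 kb of the window centre, and the longest distance between neighbours was 177 kb. Dlx5 held 13 of the 15 (86.7%, 59.5 to 98.3), where it held 69.9% of primary Sp7 sites in the series. The other 2 each had a peak in Dlx5 replicate 2. Cell line Sp7 held 10 of the 15 (66.7%, 38.4 to 88.2) against 40.5% in the series, Sp7mut also held 10 (series 50.9%), and Sp1 held 1 (series 8.15%). With so few sites each of these intervals is wide and holds the value of the series. With every list kept to at most its first 6063 rows, Dlx5 held 11 of the 15 and cell line Sp7 4 (26.7%), and among the wider 50% of peaks, which left 5 primary Sp7 sites, neither held any.

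The site highest in the primary lists was chr17:44447245-44447417, at -402.7 kb. It stood in rows 8 and 20 of the primary Sp7 lists, 21 and 21 of the cell line Sp7 lists, 18 and 10 of Dlx5 and 25 and 26 of Sp7mut. Sp1 had no peak there in replicate 1 and one at row 8059 of 28210 in replicate 2. In 8 of 10 tagged lists this site was thus within the first 0.623% of rows. The merged site, over 9 peaks, was 173 bp wide.

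A second group of early sites lay on the far side of the window. At 306.4 kb, chr17:45156267-45156478 stood in rows 26 and 19 of Dlx5 and rows 155 and 62 of cell line Sp7. It stood in rows 512 and 573 of Sp7mut and rows 553 and 604 of primary Sp7. In the shorter primary lists these rows are row percentiles of 20.7 and 18.8. At 360.3 kb, chr17:45210223-45210433 stood in rows 64 and 84 of Dlx5, 158 and 135 of primary Sp7 and 125 and 364 of Sp7mut. Cell line Sp7 had a peak there at row 468 in replicate 1. In replicate 2 the nearest peak, at row 261 and 49 bp wide, ended 175 bp short of the site, so the site did not count as held by cell line Sp7.

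At 335.2 kb, chr17:45184989-45185505 was early in Dlx5 (rows 62 and 54) and Sp7mut (rows 381 and 95) and was held by primary Sp7 (rows 391 and 953). Its 2 cell line Sp7 peaks, at rows 610 and 996, did not overlap each other, the second being only 14 bp wide. They were joined through wider peaks of other lists. The same was true of cell line Sp7 at chr17:44473900-44474304 (-375.9 kb), the only site held by all 5 groups. Of the 22 cell line Sp7 sites 20 had replicate peaks that overlapped directly, where the series had 97.2%. In Dlx5 it was 58 of 60 sites (series 98.7%). All sites held by the other 3 groups in the locus had such peaks.

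**Figure D3:**
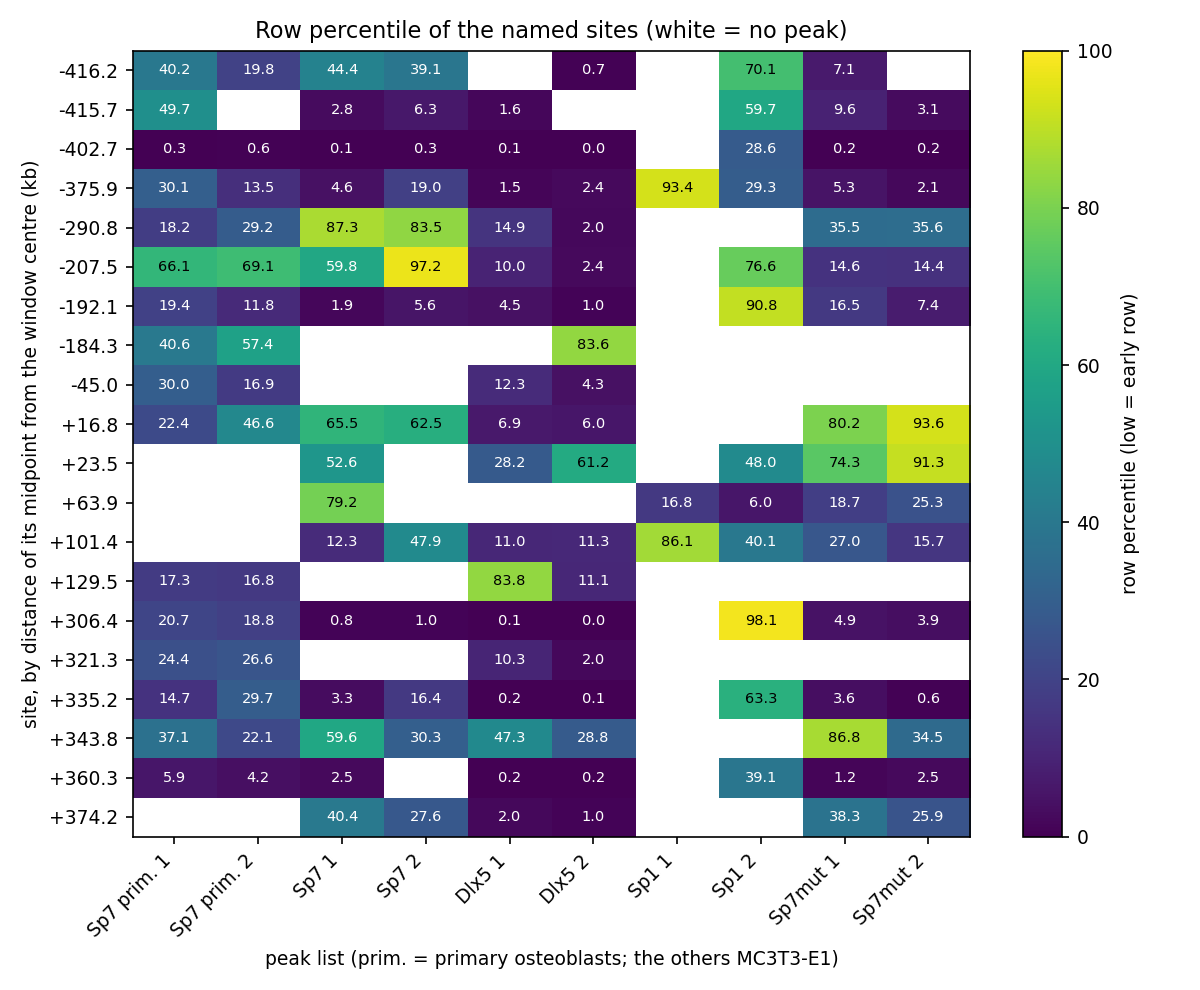
Row percentile of the 20 named sites (rows, by distance of the site's midpoint from the window centre in kb) in the 10 tagged lists (columns), where white means no peak. The site at -402.7 kb is below 1 in 8 lists, and the sites at -45.0, 129.5 and 321.3 kb have peaks in the primary Sp7 and Dlx5 lists and in none of the others.

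Sp7 in primary cells and Dlx5 in the cell line met at 3 sites where cell line Sp7, Sp7mut and Sp1 had no peak in any list. These were chr17:44804868-44805173 (-45.0 kb), chr17:44979314-44979726 (129.5 kb) and chr17:45171206-45171417 (321.3 kb). Their row percentiles were 30.0 and 16.9, 17.3 and 16.8, and 24.4 and 26.6 in primary Sp7. In Dlx5 they were 12.3 and 4.31, 83.8 and 11.1, and 10.3 and 1.96. All 3 were therefore in the earlier part of the primary lists, and the Dlx5 replicates stood far apart at the second. Primary Sp7 sites with Dlx5 and without any peak of cell line Sp7 made up 20.2% of primary Sp7 sites in the series, close to the 3 of 15 found here. A further primary site, chr17:44665592-44665843 (-184.3 kb), was held by primary Sp7 alone and had in addition a late peak of Dlx5 replicate 2, at a row percentile of 83.6.

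The other primary Sp7 sites were shared with cell line groups, at varied row positions. At chr17:44657830-44658028 (-192.1 kb) the row percentiles were 19.4 and 11.8 in primary Sp7, 1.87 and 5.61 in cell line Sp7 and 4.50 and 0.959 in Dlx5. At chr17:44559068-44559318 (-290.8 kb) primary Sp7 stood at 18.2 and 29.2 and cell line Sp7 at 87.3 and 83.5 of their own lists. At chr17:44866716-44866961 (16.8 kb) primary Sp7 was at 22.4 and 46.6, cell line Sp7 at 65.5 and 62.5 and Dlx5 at 6.94 and 5.98. Row percentiles of lists of different length are given side by side and not compared. At chr17:44642273-44642817 (-207.5 kb), primary Sp7 was at 66.1 and 69.1. At chr17:45193663-45193994 (343.8 kb) primary Sp7 was at 37.1 and 22.1, cell line Sp7 at 59.6 and 30.3 and Dlx5 at 47.3 and 28.8.

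Dlx5 held the most sites of the locus, and its 2 lists are the longest. Over the first 2666 rows of each list Dlx5 had 13 and 22 peaks here and primary Sp7 17 and 17. In addition to the 60 sites that Dlx5 held, 14 had a peak in its replicate 1 alone and 36 in its replicate 2 alone. Of the 60, 34 were held by no other group (56.7% of them, where the series had 64.4%), 20 were Sp7mut sites (series 25.2%), 18 were cell line Sp7 sites (series 19%), 13 were primary Sp7 sites (series 6.37%) and 2 were Sp1 sites (series 13.3%). The median row percentile of the 60 was 23.9, against 40.1 for the Dlx5 sites of the series. At chr17:45224056-45224316 (374.2 kb), a site without primary Sp7, Dlx5 stood at 1.99 and 1.04, cell line Sp7 at 40.4 and 27.6 and Sp7mut at 38.3 and 25.9 of their own lists.

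Dlx5 sites that were also primary Sp7 sites stood early in the Dlx5 lists. Their mean row percentile ran from 0.0423 to 47.5 with a median of 6.14 (13 sites), and 11 of the 13 lay in the first 10% of rows, as did 58.4% of such sites in the series. Dlx5 sites without primary Sp7 but with cell line Sp7 or Sp7mut had a median of 18.0 (13 sites, 1.52 to 44.7). Those with no other group had a median of 53.2 (34 sites, 6.71 to 82.0), and 5 of the 34 lay in the first 10% (series 4.32%). The same order held over the series, with medians of 6.78, 25.8 and 46.3. These classes leave the primary Sp7 sites out of the other classes. Counted whole, Dlx5 sites held by cell line Sp7 had a median of 6.35 (18 sites, series 14.7). Those held by Sp7mut had 7.47 (20 sites, series 20.8). Early Dlx5 rows in the locus were thus not particular to primary Sp7 sites. The classes overlapped in their ranges, and no test was made.

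**Figure D4:**
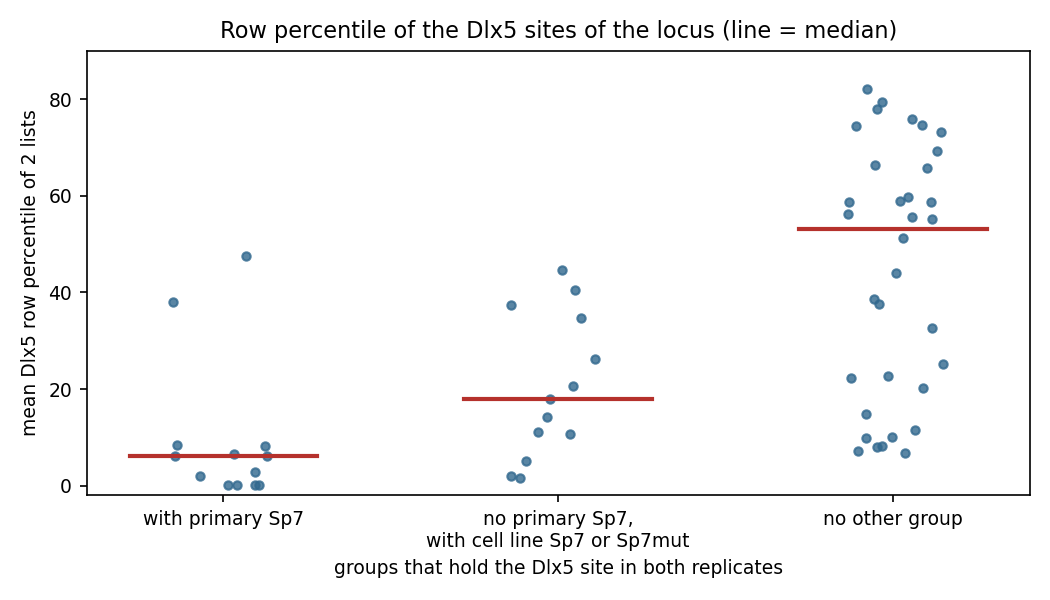
Each point is 1 of the 60 Dlx5 sites of the locus, at its row percentile averaged over the 2 Dlx5 lists, and sites are split by the other groups that hold them in both replicates. The red lines are medians, at 6.14 for sites with primary Sp7, 18.0 for those without primary Sp7 but with cell line Sp7 or Sp7mut and 53.2 for those with no other group.

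Cell line Sp7 held 22 sites, and every one of them had a Dlx5 peak in at least 1 replicate. So did 110 of all 120 sites of the locus. Dlx5 held 18 of the 22 (81.8%, 59.7 to 94.8), below the 87.1% of the series but with an interval that holds it. The 4 others were chr17:44433637-44433879 and chr17:44434054-44434528, only 174 bp apart, chr17:44555558-44556158 and chr17:44568567-44568904. At the first pair, Dlx5 replicate 2 had a peak at the one (row 274) and replicate 1 at the other (row 492), so both libraries had an early peak within the pair although neither site was held. Joining sites up to 500 bp apart, a step chosen after seeing the data, made it 21 of 22 (95.5%). Primary Sp7 held 10 of the 22 (45.5%, 24.4 to 67.8, series 17%), Sp7mut 17 (77.3%, 54.6 to 92.2, series 71.7%) and Sp1 2 (9.09%, 1.12 to 29.2, series 33.6%).

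Most Sp7mut sites were also Sp7 and Dlx5 sites. Of its 23 sites, 17 were cell line Sp7 sites (73.9%, 51.6 to 89.8, series 44.1%), 20 were Dlx5 sites (87.0%, 66.4 to 97.2, series 71.3%), 10 were primary Sp7 sites (series 13.1%) and 3 were Sp1 sites (series 43.2%). A cell line Sp7 peak of at least 1 replicate lay in 22 of the 23, against 43 of all 120 sites of the locus. The exception among the 23 was chr17:45116470-45116671, which Dlx5 held as well. In the other direction, 21 of 22 cell line Sp7 sites had an Sp7mut peak of at least 1 replicate, against 38 of all 120. The site chr17:45330179-45330613 had none. The series shares above count both replicates and are no base for these counts. These exceptions were named after their values were seen. Sp7mut and Sp1 were called against one input library and cell line Sp7 and Dlx5 against another, so factor and input cannot be told apart.

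Within shared sites the midpoints of the factors mostly lay near each other, with a few far apart. Peaks share a site only through overlap, so short distances were in part set by the merging. The median distance was 10.6 bp between cell line Sp7 and Dlx5 (18 sites, at most 146 bp), 12.8 bp between cell line Sp7 and Sp7mut (17 sites, at most 190 bp), 16.9 bp between Dlx5 and Sp7mut (20 sites, at most 865 bp, in the widest site) and 23.8 bp between primary Sp7 and Dlx5 (13 sites, at most 62.5 bp). Replicates of 1 group differed by medians of 30.8 bp in cell line Sp7, 32.3 bp in Dlx5 and 10.5 bp in primary Sp7. Distances between factors use the mean of the replicates and those within a group do not, so the former are held down and the pair cannot be ranked.

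Sp1 held 3 sites, where the median window of this length held 2. It stood in the first 20% of rows of both its lists at 1 of the 3. At chr17:44913645-44914221 (63.9 kb) its row percentiles were 16.8 and 5.96. Sp7mut held this site too, at 18.7 and 25.3, cell line Sp7 had late peaks in replicate 1 alone, and Dlx5 and primary Sp7 had none. At chr17:44950856-44952000 (101.4 kb), which starts 36.6 kb beyond the end of the first, Sp1 stood at 86.1 and 40.1, and cell line Sp7, Dlx5 and Sp7mut held the site as well, with Dlx5 at 10.97 and 11.33. At -375.9 kb Sp1 stood at 93.4 and 29.3. Replicate 2 of Sp1 alone had peaks in 28 further sites, and its list is the longer. Counting replicate 2 alone made it 31 sites, so the count of 3 rests on replicate 1.

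Many neighbouring sites lay close together. Of the 119 gaps between neighbouring sites, 89 were under 10 kb, and 28 were at most 500 bp. No such count was made for other windows, and 120 sites in 1.1 Mb leave short gaps even without clustering. Where sites less than 10 kb apart were chained, the fullest stretches were 18 sites over 58.7 kb at chr17:45167769-45226437, and 15 sites over 11.6 kb at chr17:44941466-44953029. They differed in kind. The first held 11 Dlx5, 5 Sp7mut, 4 cell line Sp7 and 4 primary Sp7 sites, and 7 of its 18 sites were peaks of a single list. In the second, 12 of the 15 sites were peaks of a single list, and only 3 Dlx5 sites and 1 site each of cell line Sp7, Sp7mut and Sp1 were held. The widest site, chr17:44872927-44874155, spanned 1229 bp and was held by Dlx5, at 28.2 and 61.2, and by Sp7mut, at 74.3 and 91.3. No list had a peak between 44979726 and 45102972, a stretch of 123 kb.

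Sites of many groups made up a larger share here than in the series. At least 4 of the 5 groups held 10 of the 120 sites (8.33%), against 3.3% of merged sites in the series. Of these 10, 8 were held by every group but Sp1. That class made up 6.67% of the sites of the locus and 1.12% of those of the series (687 sites). At the other end, 48 sites (40.0%) had a peak in 1 tagged list alone, against 39.6% in the series, and 40 of these 48 were peaks of a Dlx5 list. Both Dlx5 lists are longer than any other, at 30234 and 39749 peaks, and the series share of this last count was not taken.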

How the data were processed

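The deposited files are peak lists, 1 for each of 12 of the 15 libraries; the 3 input libraries were not analysed here. The authors deposited 3 columns for each peak, chromosome, start and end in mm9 per the submitters' processing notes, with no score, fold or count. Aligner, peak caller and cutoff were not given in the sources used here. Primary lists were called against 1 primary input, and cell line lists against either of 2, the GFP control's not being named, per the labels. Lists were made per library. Starts were read as BED positions and 1 was added. Groups and replicate numbers came from sample titles. Merging was tested on simulated lists and recovered 7 of 7 planted counts. The intervals are exact binomial (Clopper-Pearson) at 95% and cover counting error only. With 2 libraries a group no comparison was tested.

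Sites were named by rule: the 5 earliest of each group by mean row percentile, every primary Sp7 site, every site of at least 4 groups, any site with a control peak (there was none) and the widest, 20 in all; others named in the text were chosen after their values were seen. The members and lists were chosen with earlier results of these data known. Python 3.11.15, numpy 2.4.6, scipy 1.17.1 and matplotlib 3.10.9 were used. Alternatives were another overlap rule, shorter lists, other windows, and each replicate left out.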

Additional observations from a re-analysis of the deposited data

How the results depend on the processing

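For 11 counts and shares, 10 alternatives gave 110 values, of which 82 stayed within 1.5 times the count or within the interval of the share. Of the 82, 11 came from leaving out sites with a control peak and could not move. The bounds are wide. Within them fell 178 merged sites (overlap of 50% of both) and 92 (sites up to 500 bp apart joined), against 120. So did cell line Sp7 at 38.5% of primary Sp7 sites (earlier 50% of rows), against 66.7%. The cause of the values outside the bounds was not tested beyond the fewer peaks that some steps leave. Requiring peaks to overlap by 50% of both left 39 Dlx5 sites. With lists kept to 6063 rows there were 50 merged sites, 23 Dlx5, 11 cell line Sp7 and 1 Sp1 site, cell line Sp7 held 26.7% of primary Sp7 sites, and 47.8% of Dlx5 sites were primary Sp7 sites. The earlier 50% of rows gave 66 merged sites, 37 Dlx5, 13 cell line Sp7 and 1 Sp1 site. The wider 50% of peaks gave 16 Dlx5, 5 cell line Sp7, 0 Sp1, 7 Sp7mut and 5 primary Sp7 sites; Dlx5 then held 20% of cell line Sp7, 0% of primary Sp7 and 57.1% of Sp7mut sites, cell line Sp7 held 0% of primary Sp7 sites and primary Sp7 0% of Dlx5 sites. A window narrowed by 200 kb at each end held 11 cell line Sp7 and 14 Sp7mut sites. With sites up to 500 bp apart joined, 95.5% of cell line Sp7 sites were Dlx5 sites.

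Leaving out a replicate of every group gave 76 to 97 Dlx5, 27 to 39 cell line Sp7, 3 to 31 Sp1, 25 to 38 Sp7mut and 17 to 18 primary Sp7 sites, and Dlx5 then held 88.2% to 94.4% of primary Sp7 sites and 74.4% to 85.2% of cell line Sp7 sites. Leaving out sites with a control peak changed nothing, since there were none. No paired analysis was possible because the peak lists gave counts and shares and no test, and nothing in the labels ties equal replicate numbers together. Without depth or peak height, an absent peak may be a peak under the submitters' threshold.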
